A study of Mus musculus with 6 samples.

Results

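The genes described here are 8 transcription factors that direct the hepatocyte lineage: Onecut1, the forkhead genes Foxa1, Foxa2 and Foxa3, the C/EBP genes Cebpa, Cebpb and Cebpd, and the homeobox gene Prox1. They were found by gene symbol in the platform annotation, and all 8 were on the array, with 11 probe sets of 20380 that have a single symbol. Where a gene had several probe sets, that with the highest mean over the 6 arrays was its lead probe set, so that the 8 genes stand among 12393 tested. The series holds liver RNA from 6 mice of the C57 background, all labelled Ppara KO and 1 month old, so the deletion of this fatty acid receptor gene is shared by both groups. In 3 mice the liver received an adenoviral vector and overexpressed TFEB, an activator of lysosomal genes, in liver, and the other 3 mice were not injected. The labels describe no mice that received a vector without TFEB, so effects of TFEB, of the vector and of the injection cannot be told apart. No source used here gives the promoter in the vector, its dose or the time after injection.

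Hepatocyte fate is set and kept by a small network of transcription factors that bind each other's genes as well as those of albumin, apolipoproteins and metabolic enzymes. FOXA proteins open compacted chromatin at liver enhancers, ONECUT1 (hepatocyte nuclear factor 6) acts with them in hepatocytes, bile duct cells and pancreas, and PROX1 is needed for liver growth and also marks lymphatic endothelium. Among the C/EBP proteins, C/EBP alpha is known for keeping mature hepatocytes in a resting, metabolic state, whereas the genes of C/EBP beta and C/EBP delta respond to cytokines, hormones and injury.

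Of the 8 genes, 4 fell in the injected livers: Onecut1, Cebpd, Foxa3 and Cebpb. Foxa1, Foxa2, Cebpa and Prox1 did not pass the test (limma, adjusted p under 0.05 over all genes). None of the 8 rose, although Foxa1 had an unadjusted p under 0.05; a test with each gene's own spread in place of the moderated one (the own-spread test) gave 0 as well. Over all 12393 genes 17.9% passed in either direction, 9.99% higher and 7.92% lower. The median log2 change, always injected minus not-injected, was -0.29 over the 8 genes and -0.01 over all genes. The arrays of the groups did not overlap for 5 of the 8 genes, 4 lower and 1 higher. Over all genes that was so for 37.1%, 18.9% lower and 18.2% higher.

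Promoter sequence from RefSeq (GRCm38.p6) was matched by symbol for 7 of the 8 genes and is shown for Onecut1, Foxa3 and Cebpb, members that fell and have an entry. Each is the 250 bases before the annotated start, 5′ to 3′ on the gene's strand, with matches to the searched motifs in capitals. Onecut1 lies at chr9:74861671-74861920 (plus strand), Foxa3 at chr7:19023540-19023789 (minus strand) and Cebpb at chr2:167688665-167688914 (plus strand).
Onecut1: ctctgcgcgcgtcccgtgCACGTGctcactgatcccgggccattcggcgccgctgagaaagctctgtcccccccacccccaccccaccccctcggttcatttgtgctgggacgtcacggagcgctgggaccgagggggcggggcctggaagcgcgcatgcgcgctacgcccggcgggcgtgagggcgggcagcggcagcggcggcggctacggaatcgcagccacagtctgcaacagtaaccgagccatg
Foxa3: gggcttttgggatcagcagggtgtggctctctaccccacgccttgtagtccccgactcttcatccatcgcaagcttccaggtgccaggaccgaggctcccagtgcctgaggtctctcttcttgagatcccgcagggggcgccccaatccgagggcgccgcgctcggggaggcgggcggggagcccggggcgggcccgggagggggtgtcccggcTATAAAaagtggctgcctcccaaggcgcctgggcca
Cebpb: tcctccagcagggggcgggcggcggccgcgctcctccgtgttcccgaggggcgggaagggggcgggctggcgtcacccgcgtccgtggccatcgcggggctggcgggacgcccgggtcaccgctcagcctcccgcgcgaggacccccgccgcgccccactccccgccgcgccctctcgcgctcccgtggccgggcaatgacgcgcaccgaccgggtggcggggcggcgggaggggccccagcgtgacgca

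The motifs were searched on both strands in the 250 bases before the start of 32851 RefSeq promoters. CACGTG, the E-box that TFEB and related factors bind, was present in the Onecut1 window at position -232 from the start, in no other window of the 7 genes, and in 6.02% of all windows. Its longer form TCACGTGA, which contains it, was in 0.785% of all windows, and TTGCGCAA, a palindrome bound by C/EBP proteins, in 0.164%. Neither was found in a window of the 7 genes. TGTTTAC, a forkhead core, was in 3.17% of all windows and in that of Foxa1. ATTGAT, an ONECUT core, was in 6.72% and in 1 of the Foxa2 windows. TATAAA, the TATA box, was on either strand in 12.4% of all windows. Among the 7 genes it was on the gene's strand at position -36 for Foxa3 and -30 for Cebpa. The matches at -34 in a Prox1 window and -208 in a Foxa2 window were on the opposite strand, and read TTTATA on the gene's strand. The Onecut1 and Cebpb windows did not hold these letters. The windows of Onecut1, Foxa3 and Cebpb were 71.6%, 68.8% and 81.6% G and C, against a median of 52.4% over all windows. A match describes the letters in the window and does not show binding.

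Onecut1, for a cut homeodomain factor of hepatocytes and bile ducts, showed by far the largest change of the 8. Its log2 levels were 9.63, 9.59 and 9.61 in the not-injected livers and 7.93, 7.78 and 7.84 in the injected livers, replicates 1 to 3 in each group. On this lead probe set the groups were far apart, and each was narrow: means were 9.61 ± 0.02 and 7.85 ± 0.08 (SD, n = 3). The log2 change was -1.76 ± 0.05 (SE; 95% interval -1.89 to -1.64; limma, adjusted p = 7.79e-06), or 3.39-fold lower, and its p ranked 4 of 12393 genes. The other Onecut1 probe set read 9.60, 9.51 and 9.64 in not-injected and 7.78, 7.54 and 7.26 in injected livers. On it the injected livers were less tight (SD 0.26, against 0.07 in not-injected). There the change was -2.05 ± 0.12 (adjusted p = 9.05e-05 over all probe sets, of which 15.4% passed), or 4.15-fold lower. Both probe sets therefore placed every injected liver below every not-injected one.

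**Figure D1:**
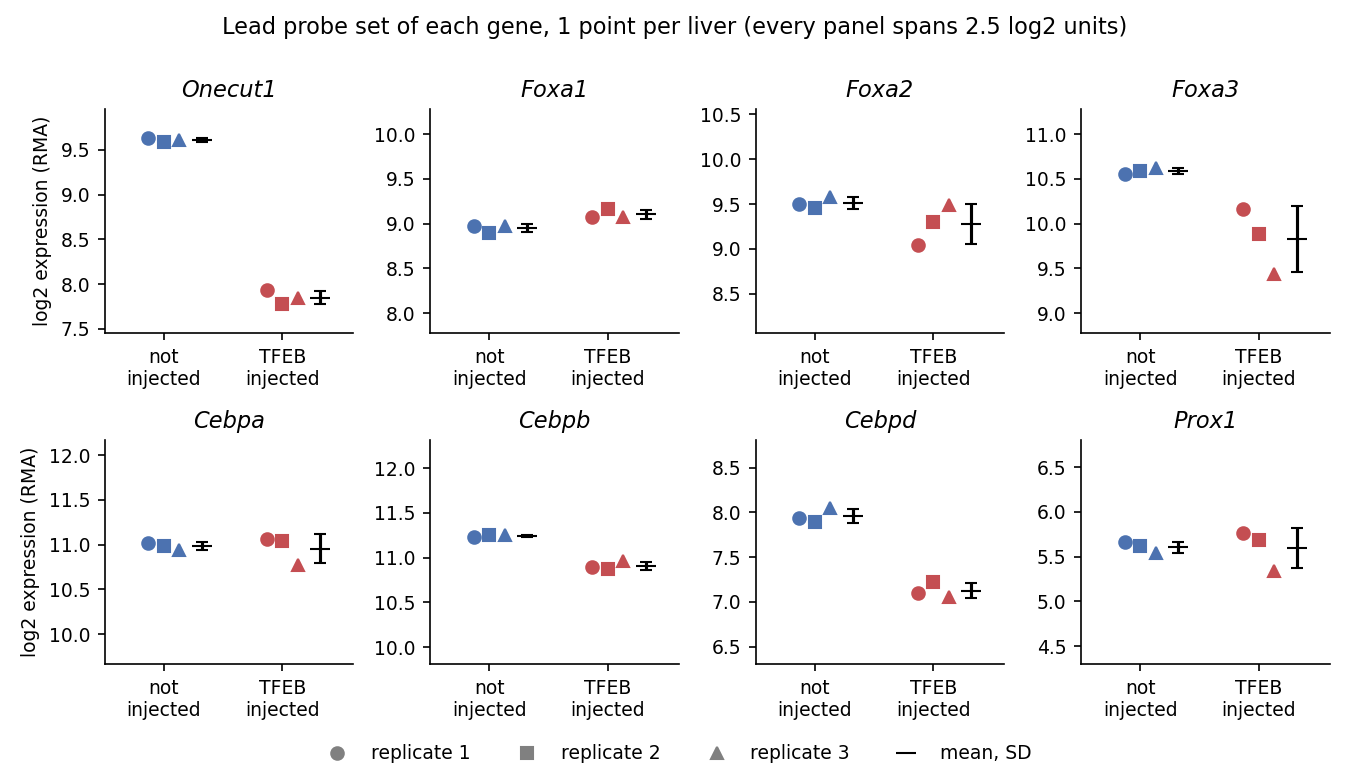
Log2 expression (RMA, y axis) of the lead probe set of each of the 8 genes in the 3 not-injected (blue) and 3 TFEB-injected (red) livers, with 1 point per liver and the mean and SD beside them; every panel spans the same log2 range. Onecut1 went from 9.61 to 7.85, and the injected livers scattered more widely for Foxa2, Foxa3, Cebpa and Prox1 than for Onecut1, Cebpb and Cebpd.

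Of the 3 forkhead genes, Foxa3 fell and the other two did not pass. Foxa3, for a FOXA protein of liver and gut, read 10.55, 10.59 and 10.62 in not-injected and 10.16, 9.89 and 9.44 in injected livers. All injected livers were lower, but they spread over a wide range (SD 0.36 against 0.04). The log2 change was -0.76 ± 0.16 (SE; 95% interval -1.13 to -0.38; adjusted p = 0.0171), or 1.69-fold lower. Foxa3 did not pass once not-injected replicate 1, 2 or 3 was removed (adjusted p = 0.0553, 0.0635 and 0.0594), nor once TFEB-injected replicate 2 was (adjusted p = 0.0535), nor with each gene's own spread (adjusted p = 0.109).

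Foxa2, whose product acts in the fasting liver and in bile acid handling, read 9.50, 9.45 and 9.58 in not-injected and 9.04, 9.30 and 9.49 in injected livers. The groups overlapped, since injected replicate 3 lay above not-injected replicate 2. The change was -0.23 ± 0.11 (SE; 95% interval -0.49 to 0.02; adjusted p = 0.186), and without TFEB-injected replicate 3 it was -0.34 and passed (adjusted p = 0.0357). Among the injected livers, replicate 1 was the lowest for Foxa2 and the highest for Foxa3, and replicate 3 the reverse.

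Foxa1, a pioneer factor that overlaps with FOXA2 in early liver, read 8.97, 8.90 and 8.98 in not-injected and 9.08, 9.16 and 9.07 in injected livers. Every injected liver was above every not-injected one, by a small margin. The change was 0.15 ± 0.05 (SE; 95% interval 0.04 to 0.27), with an unadjusted limma p of 0.0157 and an adjusted p of 0.0731. It passed when genes under the median level were left out (adjusted p = 0.0285), with an intensity trend and robust prior (0.0488) and with array weights (0.00209).

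Whether the forkhead genes changed unequally was tested on the difference between probe sets within each liver. Foxa1 minus Foxa3 was 0.91 log2 units higher in the injected livers, and Foxa1 minus Foxa2 was 0.39 higher. In neither did the groups overlap. Foxa2 minus Foxa3 was 0.52 higher with overlapping groups (two-sided exact permutation p = 0.30). The exact p was 0.10 for the first 2 differences, the smallest that 3 against 3 livers allow, and 0.117 after adjustment over the 7 pairs tested. The 7 pairs also took in those of the C/EBP genes and Onecut1 minus Foxa2. That last difference changed by -1.53 without overlap of the groups (exact permutation p = 0.10, adjusted 0.117).

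Among the C/EBP genes, Cebpd had the largest fall. Its lead probe set read 7.94, 7.89 and 8.05 in not-injected and 7.10, 7.22 and 7.06 in injected livers. The groups were separate and equally tight (SD 0.08 in each), and the change was -0.83 ± 0.06 (SE; 95% interval -0.98 to -0.68; adjusted p = 2.58e-04), or 1.78-fold lower. The other Cebpd probe set did not show it, with 5.64, 5.74 and 5.66 against 5.70, 5.67 and 5.59 and a change of -0.03 ± 0.05 (adjusted p = 0.778 over all probe sets). That probe set was dim, under the level of the median gene (7.34). The lead probe set was above that level in the not-injected livers (mean 7.96) and under it in the injected livers (mean 7.13). The mean of both Cebpd probe sets fell by 0.43.

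Cebpb, an inducible factor of liver regeneration and the acute phase, read 11.23, 11.25 and 11.25 in not-injected and 10.89, 10.87 and 10.96 in injected livers. The fall was small and the groups did not overlap: the change was -0.34 ± 0.05 (SE; 95% interval -0.44 to -0.23; adjusted p = 0.00251), or 1.26-fold lower. Its other probe set went the same way, from 9.02, 9.07 and 8.98 to 8.57, 8.63 and 8.63, a change of -0.42 ± 0.05 (adjusted p = 0.00168 over all probe sets).

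Cebpa read 11.02, 10.99 and 10.94 in not-injected and 11.06, 11.04 and 10.77 in injected livers. Injected replicates 1 and 2 lay above and replicate 3 below all not-injected livers, so the groups overlapped. The change of -0.03 ± 0.08 (SE; 95% interval -0.22 to 0.16; adjusted p = 0.858) did not pass; without TFEB-injected replicate 3 it was 0.07 (adjusted p = 0.381). Differences within each liver were taken on lead probe sets. Cebpa minus Cebpb was 0.31 higher in the injected group, Cebpa minus Cebpd 0.81 higher and Cebpb minus Cebpd 0.50 higher. In each of these 3 differences the groups did not overlap. The exact permutation p was 0.10, the smallest possible, and 0.117 after adjustment over 7 pairs. The other Cebpd probe set, which changed by -0.03, was not used, so the differences with Cebpd hold for its lead probe set only.

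Prox1, which restrains lipid and bile acid genes together with nuclear receptors, had a dim probe set, with a mean of 5.60 over the 6 arrays. It read 5.66, 5.62 and 5.54 in not-injected and 5.76, 5.69 and 5.34 in injected livers, and the groups overlapped. The change was -0.01 ± 0.11 (SE; 95% interval -0.26 to 0.24; adjusted p = 0.969). Without TFEB-injected replicate 3 it was 0.12 (adjusted p = 0.178). The same liver was also the lowest of all 6 for Foxa3 and Cebpa.

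**Figure D2:**
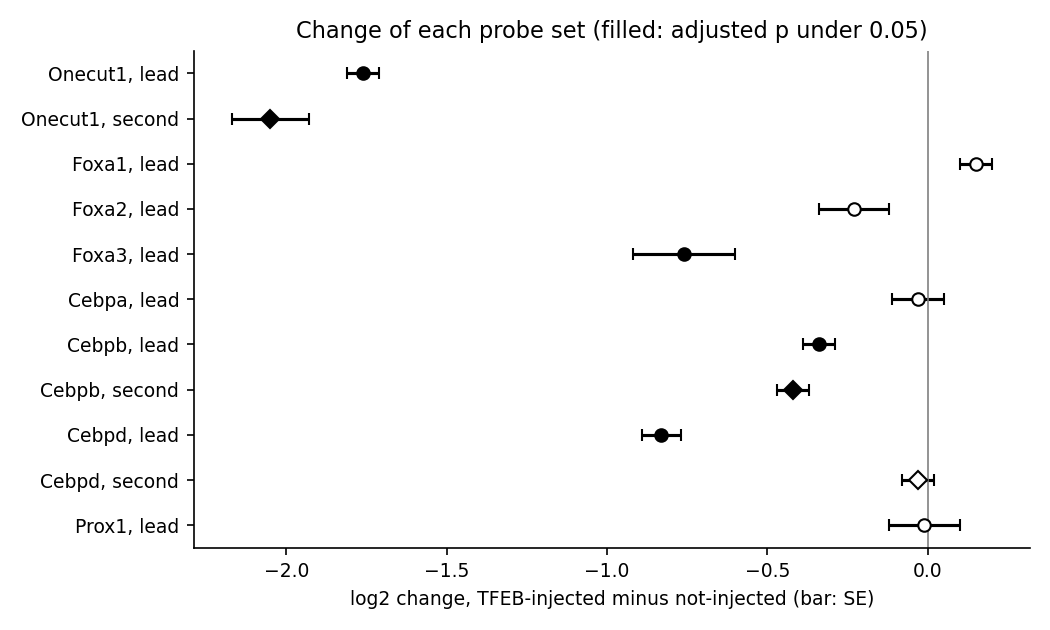
Log2 change (TFEB-injected minus not-injected, x axis, bars are SE) of the 11 probe sets of the 8 genes; circles are lead probe sets, diamonds the other ones, and filled symbols had an adjusted p under 0.05 over all probe sets. The pairs for Onecut1 (-1.76 and -2.05) and Cebpb (-0.34 and -0.42) fell together, whereas those for Cebpd (-0.83 and -0.03) differed.

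**Figure D3:**
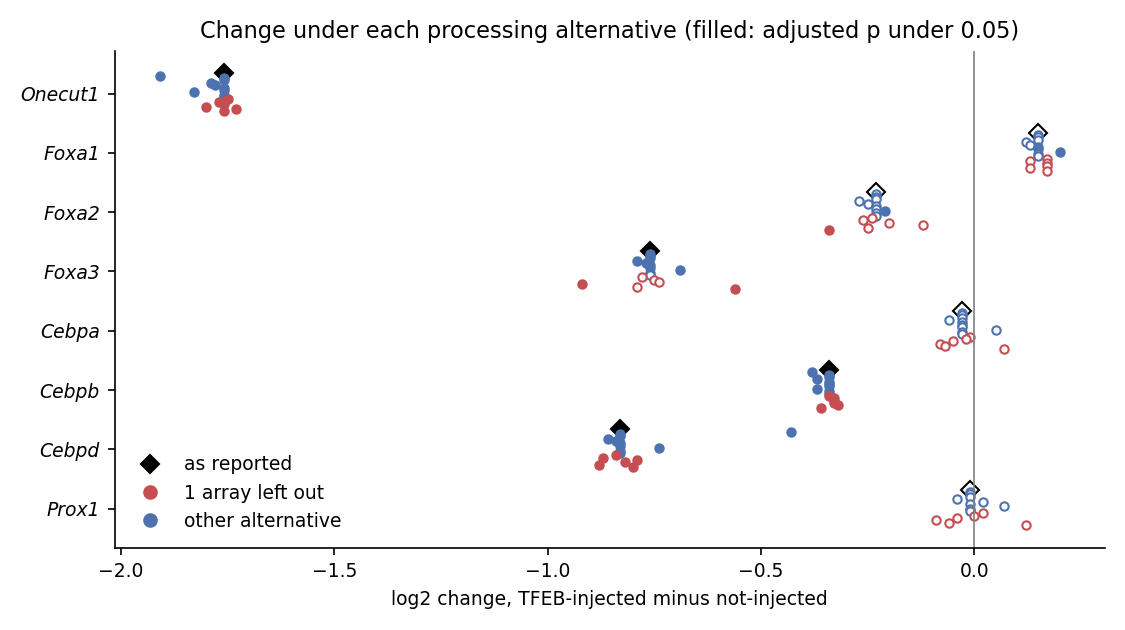
Log2 change (x axis) of each of the 8 genes as reported (black) and under 16 processing alternatives (15 for Prox1), with the 6 that leave out 1 array in red and the others in blue; filled symbols had an adjusted p under 0.05. Onecut1 stayed between -1.91 and -1.73 and passed in all 16; Cebpb and Cebpd passed in all 16 and Foxa3 in 11 of 16, and the Cebpd point at -0.43 is the mean of its probe sets.

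The nearest tested genes on either side of each member, in the RefSeq order and with up to 2 untested coding genes between, mostly did not pass. Most of all genes did not pass either, since 17.9% did. The neighbours of Onecut1 were Rsl24d1 (-0.13 ± 0.06 SE; adjusted p = 0.151) and Arpp19, which rose (0.23 ± 0.05; adjusted p = 0.0214). Those of Foxa3, Irf2bp1 and Rsph6a, were at 0.06 ± 0.06 and 0.08 ± 0.08, and those of Cebpb, Tmem189 and Ptpn1, at 0.06 ± 0.05 and 0.13 ± 0.04, none past the threshold. Beside Cebpd, Mzt2 fell by 0.30 ± 0.06 (adjusted p = 0.00995) and Spidr was at 0.03 ± 0.07. Rps6kc1, beside Prox1, rose (0.21 ± 0.05; adjusted p = 0.0346).

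The genes whose levels followed each fallen member most closely over the 6 arrays were taken from 1549 genes (1550 for Cebpb) with a range of at least 0.5 log2 units. With only 2 groups, such a likeness mainly reflects the gap between them. For Onecut1 they were Leap2, for a liver antimicrobial peptide (Pearson r = 0.9987; log2 change -0.86 ± 0.04 SE), Acox2, for a peroxisomal oxidase of bile acid precursors (r = 0.9983; -0.67 ± 0.04), and Glud1, for glutamate dehydrogenase (r = 0.9980; -0.53 ± 0.04). For Foxa3 they were Epb41l4b (r = 0.9976), the drug-metabolizing gene Cyp3a11 (r = 0.9966) and the steroid dehydrogenase gene Hsd3b5 (r = 0.9965), at -0.42 ± 0.10, -0.36 ± 0.08 and -1.08 ± 0.24. Like Foxa3, these 3 genes did not pass once any 1 not-injected array or TFEB-injected replicate 2 was removed, nor with each gene's own spread, and the other Epb41l4b probe set gave -0.02. For Cebpb they were the retinoic acid hydroxylase gene Cyp26a1 (r = 0.9977; -0.86 ± 0.07), the kinase gene Pim3 (r = 0.9963; -0.75 ± 0.05) and Tlcd2 (r = 0.9952; -0.59 ± 0.05). For Cebpd they were the glutathione transferase gene Gstm6 (r = 0.9995; -0.63 ± 0.06), the carboxylesterase gene Ces2e (r = 0.9990; -0.43 ± 0.05) and the growth factor gene Fgf1 (r = 0.9977; -0.46 ± 0.05).

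Other liver-enriched transcription factors changed in both directions. Of 30 measured, 4 rose and 5 fell, or 30% against 17.9% of all genes, with a median log2 change of -0.11. Nr2f2, for an orphan receptor, fell from 9.18 ± 0.04 to 8.80 ± 0.08 (SD, n = 3; -0.38 ± 0.06 SE; adjusted p = 0.00383), and the circadian and glucocorticoid-responsive Klf15 fell by 0.30 ± 0.05 (adjusted p = 0.00647). The other falls, chosen for mention after their values were seen, were in 3 nuclear factor I genes, Nfix (-0.32 ± 0.06), Nfia (-0.24 ± 0.04) and Nfib (-0.18 ± 0.05). Nfib did not pass once any 1 not-injected array or TFEB-injected replicate 2 was removed (highest adjusted p = 0.128). The Notch target Hes1 (0.44 ± 0.07) and Gata6 (0.35 ± 0.05) rose. The largest change on the list was a rise in Klf6, for an injury-responsive factor (0.95 ± 0.20; adjusted p = 0.0177), also mentioned after its values were seen. Klf6 went from 6.54 ± 0.12 to 7.49 ± 0.45 (SD, n = 3), and its other probe sets were higher in the injected group too. It did not pass when TFEB-injected replicate 2, not-injected replicate 2 or not-injected replicate 3 was removed. Of the list, 2 rose and 5 fell in the own-spread test. Hnf4a, the central nuclear receptor of hepatocytes and also mentioned after its values were seen, read 13.03, 13.05 and 13.00 in not-injected and 13.03, 12.90 and 12.81 in injected livers (-0.11 ± 0.06; adjusted p = 0.274). Its other probe sets gave -0.30, -0.18 and -0.03.

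Among relatives of the members by family, 12.5% of the C/EBP list, 12.5% of the forkhead list and 33.3% of the cut and prospero list passed, against 17.9% of all genes. Of 8 other C/EBP genes and partners 1 rose, Ddit3, for the stress-induced C/EBP homologous protein (0.37 ± 0.06 SE; adjusted p = 0.00521), and 2 did without TFEB-injected replicate 3. Of 24 genes on a forkhead list, Foxq1 fell from 7.80 ± 0.07 to 7.15 ± 0.18 (SD, n = 3; -0.65 ± 0.09 SE; adjusted p = 0.00305). Foxo3, for an insulin-regulated factor, fell by 0.15 ± 0.04, and did not pass when any single array was removed. The single rise was in Foxred1 (0.46 ± 0.05), an oxidoreductase gene that entered the list by its symbol and encodes no forkhead factor. Of 3 cut and prospero relatives Cux1 rose (0.38 ± 0.05; adjusted p = 0.0029), while its other 5 probe sets ranged from -0.13 to 0.12.

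Lists of genes described as targets of these factors, with the 8 members left out, held more genes that fell than rose. They share genes, and were collected from general knowledge, so a change in a list does not show which factor acts on it. Of 15 genes linked to ONECUT1, 6 fell and 1 rose (46.7% against 17.9%; median -0.11), and with each gene's own spread 3 fell and 0 rose. Pck1, for the gluconeogenic phosphoenolpyruvate carboxykinase, fell by 0.68 ± 0.05 (SE; adjusted p = 1.59e-04), and Tat, for tyrosine aminotransferase, by 0.49 ± 0.05 (adjusted p = 6.17e-04); the other Pck1 probe set gave -0.21. Slc2a2, for the liver glucose transporter, read 13.28 in all 3 not-injected livers and 12.84, 12.89 and 12.92 in injected livers (-0.39 ± 0.04), mentioned after its values were seen. The single rise, in the cyclin gene Ccnd1 (0.83 ± 0.23; adjusted p = 0.0462), did not pass when any single array other than TFEB-injected replicate 3 was removed.

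Pck1, Tat and Slc2a2 also stood on the other 2 lists. Of 21 genes linked to FOXA factors 7 fell and 1 rose (38.1%; median -0.08), the rise being in the carnitine palmitoyltransferase gene Cpt1a (0.48 ± 0.09 SE). The own-spread test left 6 falls and 0 rises on the FOXA list, and Cpt1a did not pass. Of 22 metabolic genes linked to C/EBP factors 7 fell and 3 rose (45.5%; median -0.08), and 4 fell without not-injected replicate 1 or 2. The largest rises there were in Ppargc1a (2.25 ± 0.32) and in the fatty acid transporter gene Cd36 (2.01 ± 0.14). On that list 6 fell and 1 rose in the own-spread test, and Ppargc1a did not pass. On all 3 lists, G6pc, for glucose-6-phosphatase, read 12.76, 12.46 and 11.59 in the injected livers against 13.42 to 13.45 in the others. Cyp7a1, for the first enzyme of the classical bile acid pathway and on the ONECUT1 and FOXA lists, read 10.06, 10.40 and 10.70 against 11.18 to 11.30. Among the injected livers, replicate 3 was thus the lowest for G6pc and the highest for Cyp7a1. Both genes were chosen for mention after their values were seen. G6pc (-1.16 ± 0.26; adjusted p = 0.0209) did not pass once any 1 not-injected array or TFEB-injected replicate 2 was removed.

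Acute phase genes, many of which have C/EBP sites, changed in both directions. Of 25 measured, 8 rose and 4 fell (48% against 17.9%; median 0.22). In the own-spread test 3 rose and 4 fell, so the balance of rises and falls turned. Crp, for C-reactive protein, rose by 0.43 ± 0.04 (SE; adjusted p = 8.09e-04) and the endotoxin receptor gene Cd14 by 0.75 ± 0.09 (adjusted p = 0.00136). The metalloreductase gene Steap4 fell by 0.86 ± 0.07 (adjusted p = 3.49e-04) and Saa4 by 0.44 ± 0.06 (adjusted p = 0.00187). These were named by p and not by size. The largest change on the list that passed was in Saa2 (3.325), whereas Lcn2, at 3.21, did not pass. Both were mentioned after their values were seen. The count of rises was 13 without TFEB-injected replicate 1, 4 without TFEB-injected replicate 2 or not-injected replicate 1 or 2, and 5 without not-injected replicate 3.

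Of 21 genes of interleukin 6 and interleukin 1 signalling, the inputs that induce Cebpb and Cebpd, 3 rose and 5 fell (38.1%; median -0.00). The receptor accessory gene Il1rap fell by 0.64 ± 0.07 (SE; adjusted p = 0.00102) and Pim3 by 0.75 ± 0.05. Further probe sets gave -0.27 and -0.13 for Il1rap and -0.26 and -0.82 for Pim3. The oncostatin receptor gene Osmr (0.31 ± 0.07) and Il6ra (0.29 ± 0.07) rose, but neither passed once any 1 not-injected array was removed, nor did Il6ra once TFEB-injected replicate 2 was. Their other probe sets gave -0.11 and 0.02. The own-spread test gave 4 falls and 0 rises. No rise was left without any 1 of the not-injected livers (0 of 21 by limma), 1 without TFEB-injected replicate 2 and 5 without replicate 3. Socs3, an early target of interleukin 6 mentioned after its values were seen, read 7.90, 8.30 and 8.85 in injected and 8.70 to 8.76 in not-injected livers (-0.38 ± 0.21; adjusted p = 0.269).

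Growth hormone is known to raise Onecut1 in liver. Of 13 genes on its signalling list 1 passed, or 7.69% against 17.9% of all genes, with a list median of -0.03. It was Stat5a (0.31 ± 0.06 SE; adjusted p = 0.0146). Stat5a did not pass with each gene's own spread, nor once not-injected replicate 3 or TFEB-injected replicate 2 was removed, while 2 genes rose without TFEB-injected replicate 3 and 2 fell without TFEB-injected replicate 1 or 3.

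**Figure D4:**
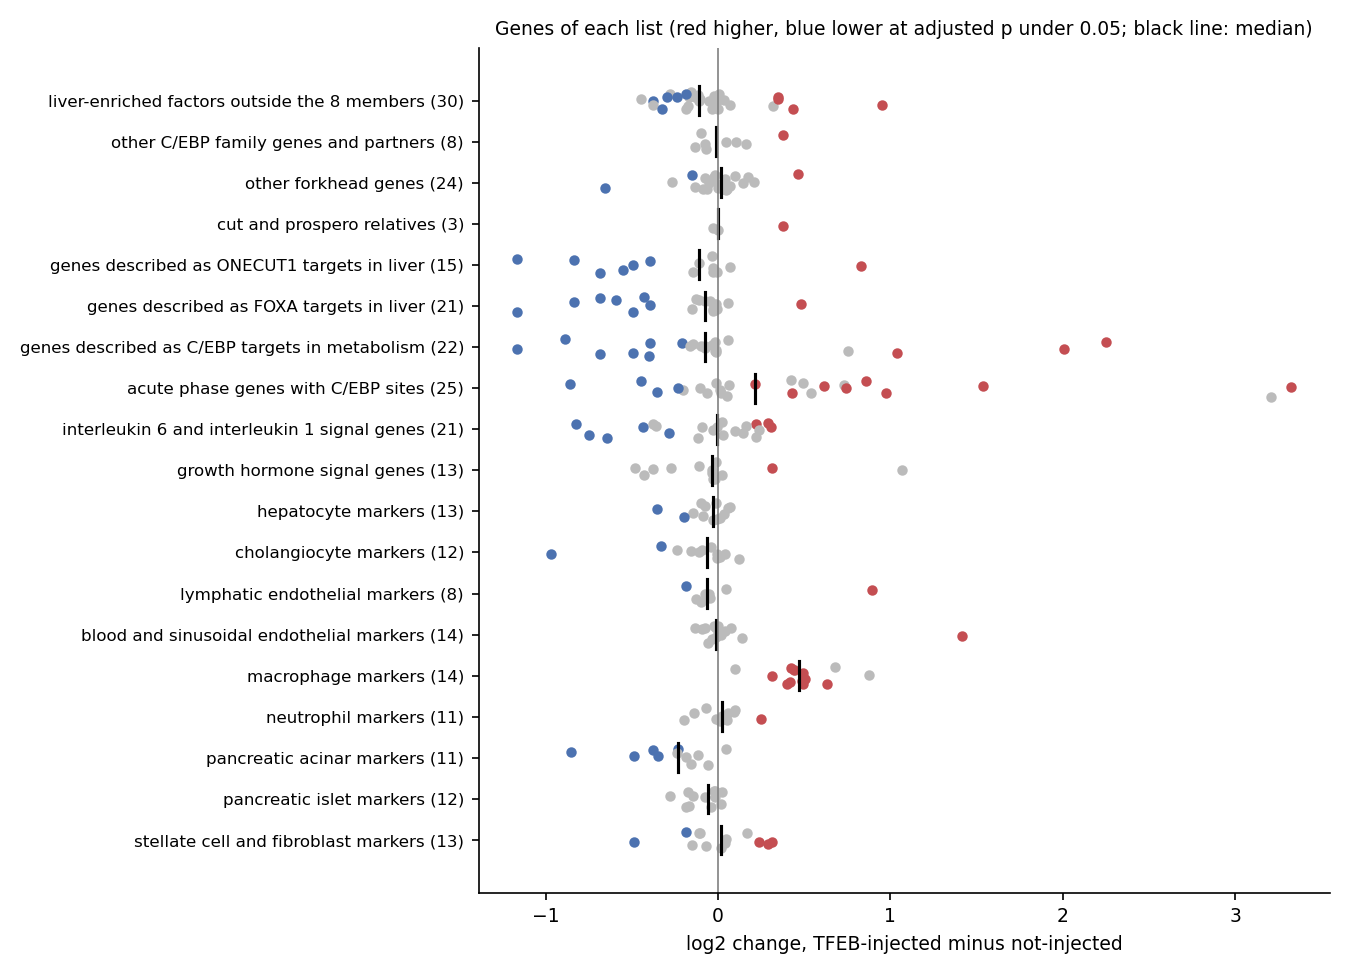
Log2 change (TFEB-injected minus not-injected, x axis) of every measured gene of each list, the 8 members left out, with red for genes higher and blue for genes lower at an adjusted p under 0.05 and a black line for the list's median; the number measured is in brackets. Lists linked to ONECUT1, FOXA and C/EBP factors have more blue than red points, the acute phase list has 8 red and 4 blue, and of the macrophage markers 10 of 14 are red.

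In whole liver RNA, fewer cells of a type and less RNA per cell cannot be told apart. The tissue label was borne out by hepatocyte markers: all 13 measured lay above the median gene, with a mean log2 level of 13.60 to 13.61 in not-injected and 13.53 to 13.56 in injected livers. Of these, 2 passed by limma, or 15.4% against 17.9% of all genes, and 4 fell in the own-spread test. By limma Asgr1 fell (-0.36 ± 0.05 SE; adjusted p = 0.00229), as did Ambp (-0.20 ± 0.04), which did not pass once any 1 not-injected array or TFEB-injected replicate 2 was removed. Albumin (Alb) and transthyretin (Ttr), both classical targets of the network mentioned after their values were seen, were at -0.08 ± 0.04 and -0.00 ± 0.04 and did not pass.

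Markers of other cells that express members of the network passed in unequal shares. By limma it was 16.7% of cholangiocyte, 45.5% of pancreatic acinar and 0% of islet markers, against 17.9% of all genes. The cholangiocyte share was thus near that of all genes. Onecut1 is also active in bile ducts and pancreas. Of 12 cholangiocyte markers, none above the median gene, 2 fell: Pkhd1, for the fibrocystin of bile duct cilia (-0.97 ± 0.07 SE; adjusted p = 2.22e-04), and Sox9 (-0.33 ± 0.05; adjusted p = 0.00375). Their mean level was 5.67 to 5.70 in not-injected and 5.50 to 5.56 in injected livers. Of 11 pancreatic acinar markers 5 fell, among them Cela1 (-0.85 ± 0.05) and Prss2 (-0.38 ± 0.07), and only Cela1 lay above the median gene. Only 1 fell in the own-spread test, and Prss2 did not pass. Their mean level was 6.46 to 6.54 in not-injected and 6.15 to 6.26 in injected livers, and 2 fell without TFEB-injected replicate 1 or not-injected replicate 2. The count was 3 when TFEB-injected replicate 2 or not-injected replicate 1 or 3 was removed. The acinar factor gene Ptf1a was at 4.80 ± 0.06 and 4.68 ± 0.08 (SD, n = 3). Of 12 islet markers, none above the median gene and at a mean of 5.10 to 5.17 and 5.02 to 5.12, 0 passed by limma, 1 had an unadjusted p under 0.05 (Iapp, -0.28 ± 0.10; adjusted p = 0.097), and 1 fell without TFEB-injected replicate 3. The part of bile duct and pancreatic RNA in the Onecut1 result was not tested.

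By limma 71.4% of macrophage and 9.09% of neutrophil markers passed, against 17.9% of all genes. The share was 25% for lymphatic endothelial, 7.14% for blood and sinusoidal endothelial and 38.5% for stellate cell and fibroblast markers. Macrophages and neutrophils also express Cebpb and Cebpd. Of 14 macrophage markers 10 rose, opposite to those 2 genes, with a median of 0.47 and a mean level of 8.75 to 8.79 in not-injected and 9.08 to 9.35 in injected livers, and 8 to 13 rose when 1 array was removed but 5 with each gene's own spread. Cd5l (0.63 ± 0.05 SE) and Vsig4 (0.50 ± 0.06) had the smallest p. Of 11 neutrophil markers, at a mean of 5.61 to 5.66 and 5.60 to 5.72, S100a8 rose (0.25 ± 0.07) but did not pass when any single array was removed or with each gene's own spread. Beside Prox1, 8 lymphatic endothelial markers stood at 7.33 to 7.34 and 7.34 to 7.43. Lyve1, which liver sinusoids express too, rose by 0.89 ± 0.07, and Reln fell by 0.19 ± 0.04, which did not pass once any 1 not-injected array or TFEB-injected replicate 2 was removed. Of 14 blood and sinusoidal endothelial markers Stab2 rose (1.42 ± 0.05), and 2 rose without TFEB-injected replicate 3. The own-spread test had 1 rise and 1 fall there. Of 13 stellate cell and fibroblast markers 3 rose and 2 fell, with a median of 0.02. Col3a1 rose by 0.32 ± 0.05 and Vim by 0.29 ± 0.05, and Lrat fell by 0.48 ± 0.10. The other fall was in Reln, which stands on both this list and the lymphatic list and counts in both shares. There were 2 rises and 1 fall in the own-spread test, and Lrat did not pass. Vim did not pass without TFEB-injected replicate 2, nor Lrat without that array or not-injected replicate 2 or 3. Without TFEB-injected replicate 2, 1 of the list rose and 0 fell by limma, against 5 lower at an unadjusted p under 0.05 in all arrays. Without not-injected replicate 1, 2 rose and 1 fell, without not-injected replicate 2, 3 rose and 0 fell, and without not-injected replicate 3, 2 rose and 0 fell. The part of these cells in the changes of the 8 genes was not tested.

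The arrays themselves differed little: Pearson correlations across genes were 0.998 to 0.999 among not-injected arrays, 0.995 to 0.998 among injected arrays, and 0.989 to 0.993 for arrays of different groups. The injected livers varied more, with a median ratio of SDs of 1.24. The Tfeb probe set was at 7.55 ± 0.07 and 7.59 ± 0.12 (SD, n = 3; log2 change 0.04 ± 0.07 SE) and that of Ppara at 8.95 ± 0.07 and 9.08 ± 0.04; neither checks the labels, since no source used here gives the species of the vector's TFEB or the deleted part of Ppara. The number of arrays limits the precision. Adjusted limma p-values weigh each change against the spread between mice of the same group, moderated over all genes.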

How the data were processed

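Biotin-labelled cRNA from the liver of 6 mice was hybridised to Affymetrix arrays, per the labels. The deposited values are log2 expression levels that the authors made with RMA in the affy package, per the submitters' processing notes (no source used here gives versions). RMA as usually run includes quantile normalization, which hides overall shifts in RNA content, and it compresses changes of dim genes. Of 22690 probe sets, 64 were controls; 20393 had 1 gene symbol, 691 several and 1606 none, and 20364 had their gene ID in the reference table. After controls, 20380 probe sets for 12393 genes were used. Groups come from the labels.

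TFEB-injected was compared with not-injected by limma 3.58.1 (lmFit, eBayes; R 4.3.3) over all genes, with Benjamini-Hochberg adjustment and a threshold of 0.05. "Rose" and "fell" refer to genes past it. Further probe sets were read from a fit of all 20380. Pairs of members were compared by exact permutation (scipy 1.17.1). On simulated data with 200 of 12393 genes changed for this comparison, limma recovered 76.5% at a log2 change of 0.5 with 6 unchanged genes called. It recovered 98% at 1 with 6, and it called 0 without change. The simulation gave both groups the same spread. In the data 17.9% of genes passed and the median ratio of SDs was 1.24, so these shares need not hold for the real arrays.

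The members and lists were chosen with earlier results of these data known. Named were all members; of each list, up to 2 genes per direction that passed, taken by p, or its top gene by p if none did; the 3 genes most like each fallen member; and the genes marked as chosen after their values were seen. Motifs other than the E-box forms and the chromosomal neighbours were added after the data were seen. Probe sets ending in _s_at, _x_at or _a_at can detect related transcripts. The alternatives tried were other probe set choices, median centring, cyclic loess, leaving out dim genes, other priors, array weights, a replicate block, other thresholds and leaving out each array. Figures were drawn with matplotlib 3.10.9 (Python 3.11.15).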

Additional observations from a re-analysis of the deposited data

How the results depend on the processing

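Onecut1 kept its direction and its call under all 16 alternatives run, with log2 changes from -1.80 to -1.73 when 1 array was left out. The count of members that fell was 4, with 3 to 5 when 1 array was left out, 5 with array weights, and 3 with each gene's own spread or a threshold of 0.01. The count of members that rose was 0, and 1 (Foxa1) without genes under the median level, with an intensity trend and robust prior, with array weights, and at a threshold of 0.1. It was 0 with each array left out. Genes that had not passed changed sign in a few cases: with array weights Cebpa was at 0.05 and Prox1 at 0.07, and with cyclic loess Prox1 was at 0.02. With 1 array left out Cebpa ranged from -0.08 to 0.07 and Prox1 from -0.09 to 0.12, where it was 0.02 when not-injected replicate 1 was absent. The array weights stopped short of convergence, so their p-values are uncertain. Prox1 gave no value where dim genes were left out. With the replicate number as a block, Onecut1 was at -1.76 (adjusted p = 3.95e-04) and 4 members fell and 0 rose, while 1533 in place of 2219 genes passed overall. The labels do not say that the numbers pair the mice. Deviations of same-numbered arrays correlated at 0.01, -0.13 and -0.11, which with so few arrays cannot decide it. Centring the arrays on their median moved the share of calls that were higher from 55.8% to 43.9%, with no change in which of the 8 genes passed; the median of all genes was then at -0.045. Over 59 genes and 18 settings, 936 of 1049 values kept their direction and call, 98 lost the call, 9 gained it and 6 changed sign.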
